A study of Homo sapiens with 4 samples.

Results

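In both FaDu and HSC3 cells, a set of 103 genes was lower by 2-fold or more after transfection with miR-489 than after transfection with miR-504. FaDu is an established line of hypopharyngeal squamous cell carcinoma, and HSC3 an established line of squamous cell carcinoma of the tongue. The Cy5 channel of an array carried RNA of the miR-489 or the miR-504 transfectant, and its Cy3 channel RNA of a control miRNA transfectant of that line. Each of the 4 combinations of line and miRNA was measured on 1 two-colour array, 72 h after treatment. The log2 ratio of an array is the log2 of Cy5 over Cy3 with the array median removed, so a ratio of -1 is a level 2-fold below the control transfectant. The difference of a gene in a line is its miR-489 log2 ratio minus its miR-504 log2 ratio. The 103 genes were chosen by these differences, at or below -1 in each line, out of 15609 genes whose brightest probe was well above background in both channels on all 4 arrays. The array design holds 30982 gene names in all. A further 6 genes that met the same limits (PTPN11, SUZ12, AP1M2, AP1S1, NF2 and CTDSPL2) were left out by name. As the difference itself chose the genes, and there was 1 array per condition, all values below are descriptions and none was tested. The number of genes depends on the processing: 41 met the limits with normexp background correction, 44 with no background subtraction and 41 where both channels had to reach an intensity of 200 on all arrays, and 37 of the 103 were kept under all 7 settings of signal, background and centring tried.

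A microRNA is a short RNA that guides an Argonaute protein to messenger RNAs, mostly through pairing of its seed, the bases near its 5′ end, with a matching stretch of the 3′ untranslated region. Paired messengers are translated less and are often degraded, so a transfected microRNA can lower the level of many transcripts at once, each by a modest amount. Transcripts that do not pair may also move, as a later effect of those that do. A second transfected microRNA with another seed serves as a comparison that shares the transfection but not the seed.

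The mature sequences of both microRNAs are shown because the seed is the part in which the treatments differ. They were taken from RefSeq with positions on GRCh38.p14, and capitals mark the seed, bases 2 to 8 counted from the 5′ end. The labels do not say which arm of each precursor was supplied.
hsa-miR-489-3p (chr7:93483947-93483968, minus strand): gUGACAUCacauauacggcagc
hsa-miR-504-5p (chrX:138667760-138667781, minus strand): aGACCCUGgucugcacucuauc
hsa-miR-504-3p (chrX:138667724-138667744, minus strand): gGGAGUGCagggcaggguuuc
No seed is shared among the 3. A transcript fully paired to the seed of miR-489-3p would hold GAUGUCA, and one paired to the miR-504 arms CAGGGUC or GCACUCC. Whether the transcripts of the 103 genes hold these letters was not analysed here.

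All 4 arrays were on 1 slide and were read in 1 scan, and dyes were not swapped. A dye effect of a probe that is the same on every array cancels in the difference between miRNAs but not in a ratio to the control. The spread between spots of a probe, pooled over 189 probes with at least 5 spots, was 0.071 to 0.082 on the log2 scale. This corresponds to a standard deviation (SD) of 0.116 for a difference in FaDu and 0.106 in HSC3, which covers error within an array only. The keratinocyte and epithelial markers KRT5, KRT14, KRT17, SFN, CDH1 and DSP were well above background on every array, as were TP73L and TACSTD1, older names of TP63 and EPCAM. PTPRC and CD3E of leukocytes, PECAM1 of endothelium and COL1A2 of fibroblasts were above background on none, and COL1A1 was above it on the HSC3 miR-489 array only.

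The median difference of the 103 genes was -1.47 in FaDu, where they ranged from -2.64 to -1.003, and -1.22 in HSC3, where they ranged from -3.16 to -1.001. Over all genes tested the medians were 0.018 and 0.019. In FaDu 2.08% of all genes tested were at or below -1, in HSC3 1.49%, and in both lines 0.698%, the 6 left-out genes included. The opposite pattern, a difference of at least 1 in both lines, was seen for 43 genes or 0.275%. The difference was larger in FaDu than in HSC3 for 73 of the 103 genes, and for 83 genes the lines lay within 0.5 of each other. The FaDu difference minus the HSC3 difference had a median of -0.19 in the set. Over all genes tested its median was 0.005 and its quartiles -0.20 and 0.19. A difference of 4-fold or more was found for 7 genes in FaDu, for 5 in HSC3 and for 2, KLHL5 and AHNAK, in both.

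**Figure D1:**
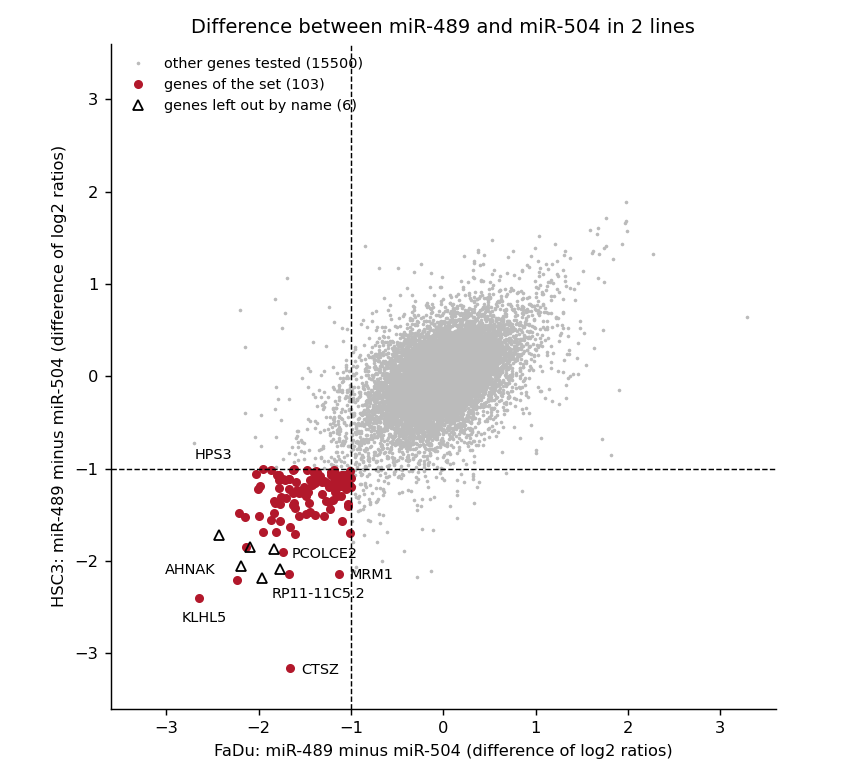
Each point is a gene, placed by its difference between miR-489 and miR-504 (difference of log2 ratios) in FaDu on the horizontal axis and in HSC3 on the vertical axis. The 103 genes lie below -1 in both lines by the rule that chose them, with KLHL5 and AHNAK at the far corner and CTSZ lowest in HSC3 at -3.16. Triangles are the 6 genes left out by name and dashed lines mark -1.

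The ratios to the control are the terms of the difference that chose the genes, so low miR-489 ratios follow in part from the rule, and a dye effect of a probe may remain in them. The median log2 ratio of the 103 genes was -1.42 after miR-489 and 0.11 after miR-504 in FaDu, and -1.24 and -0.008 in HSC3. Over all genes tested the medians of these arrays lay from 0.025 to 0.030. After miR-489, 102 genes were below the control in FaDu and all 103 in HSC3. Of the 103, 66 were at least 2-fold below the control on both miR-489 arrays, beside 3.56% of all genes tested, from which nothing is read because the rule used these arrays. This count was 36 when the arrays were centred on all probes, 44 with normexp background correction, 44 with no background subtraction and 45 with normexp and loess. Of the 66, 64 lay within 2-fold of the control on both miR-504 arrays, or 62.1% of the 103, beside 1.44% of all genes tested. Of the 555 genes tested that were 2-fold below the control on both miR-489 arrays, 225 lay within 2-fold on both miR-504 arrays. Nothing is read from these shares, because the rule leaves out genes that are as low after miR-504 as after miR-489. On 1 of the miR-489 arrays only, 22 genes were 2-fold below the control, and 15 were 2-fold below it on neither. After miR-504, 48 genes were above the control in both lines and 40 below it. This split rests on the centring, since on arrays centred on all probes 77 were above the control in both lines and 15 below it. CTSZ, GRHL3 and CD97 alone were at least 2-fold above it in both, beside 1.62% of all genes tested. A transcript listed as THC2278239 was the only gene at least 2-fold below the control on both miR-504 arrays, beside 2.36%.

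**Figure D2:**
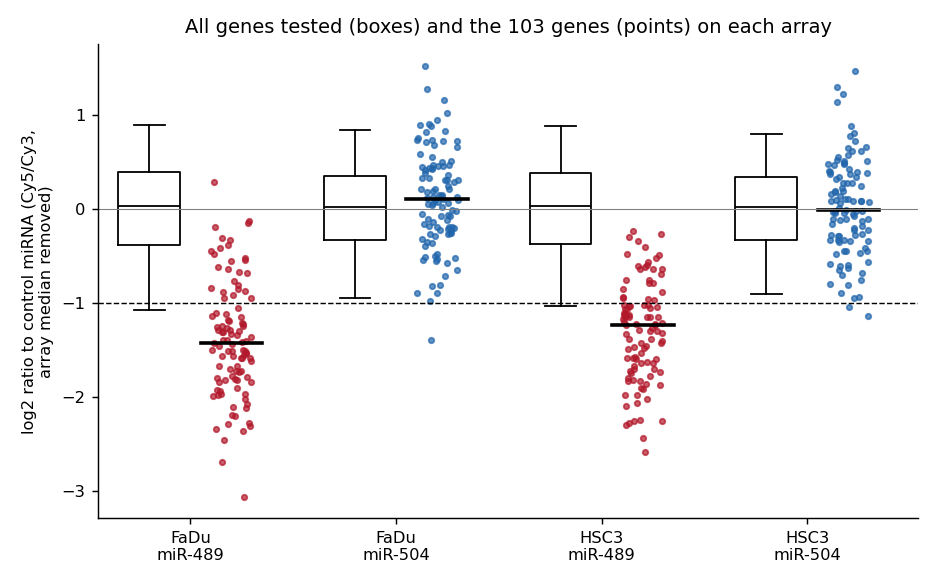
Log2 ratio to the control miRNA (vertical axis) on each of the 4 arrays (horizontal axis). Boxes show the median, quartiles and 5th to 95th percentiles of the 15609 genes tested, points are the 103 genes, heavy bars are their medians and the dashed line marks -1. Medians of the 103 genes sit at -1.42 and -1.24 on the miR-489 arrays and at 0.11 and -0.008 on the miR-504 arrays.

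Roles were assigned by hand to the 103 genes after they had been chosen, so the size of a role group is no measure of that role, and 64.1% of the whole set was 2-fold below the control on both miR-489 arrays. Genes of ubiquitin and NEDD8 conjugation, the attachment of these small proteins to others, made up 8 of the 103, and 5 of the 8 were at least 2-fold below the control on both miR-489 arrays, or 1 when centred on all probes. KLHL5, a BTB-kelch protein of a family that presents substrates to CUL3 ubiquitin ligases, had the lowest difference of the set in FaDu. Its log2 ratio was -2.19 after miR-489 and 0.45 after miR-504 in FaDu, and -2.02 and 0.39 in HSC3. KLHL5 was thus 6.25-fold lower after miR-489 than after miR-504 in FaDu and 5.30-fold lower in HSC3, with both miR-504 arrays above the control. Its fold was 4.01 and 3.53 with normexp background correction and 3.65 and 3.24 with normexp and loess, so that the 4-fold difference in HSC3 did not hold there. FBXO7, a substrate-binding subunit of an SCF ligase, had differences of -1.77 and -1.57. GMCL1, a BTB protein of the germ cell-less family, had differences of -1.32 and -1.27, and the ligase HACE1 of -1.20 and -1.34. In APPBP2, a substrate adaptor of a CUL2 ligase, the difference was -1.60 in FaDu and -1.14 in HSC3. TMEM129, a ligase of the endoplasmic reticulum, stood at -1.03 and -1.38. It met the limits under 1 of the 7 other settings of signal, background and centring. UBE1C, now UBA3, the catalytic subunit of the NEDD8-activating enzyme, and WDR68, now DCAF7, were below 2-fold against the control on both miR-489 arrays. UBE1C had log2 ratios of -0.64 and -0.47 after miR-489 and of 0.73 and 0.61 after miR-504. Centring on all probes raised the ratios of all genes by 0.34 to 0.43. The part of each miRNA in the UBE1C difference therefore rests on the centring. Genes of this and the other role groups that the naming rule did not pick were chosen for the text with their values in view.

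In the cytoskeleton, junction and cell surface group, 4 of 9 genes were 2-fold below the control on both miR-489 arrays, or 3 when centred on all probes. AHNAK, a very large scaffold protein found beneath the plasma membrane, had log2 ratios of -2.31 and -0.07 after miR-489 and miR-504 in FaDu and of -2.25 and -0.05 in HSC3. It was 4.72-fold and 4.60-fold lower after miR-489 than after miR-504, with both miR-504 arrays close to the control. The mean of all its probes gave -1.26 and -1.18. CFL2, the muscle isoform of the actin-severing protein cofilin, had log2 ratios of -1.25 and 0.88 in FaDu and of -0.97 and 0.88 in HSC3. On this probe its difference of -2.14 and -1.85 therefore held a miR-504 level above the control as well as a miR-489 level below it. Another CFL2 probe was at -2.07 and 0.13 in FaDu and at -1.15 and 0.17 in HSC3, closer to the control after miR-504. CRIPT, which binds a PDZ domain of the synaptic scaffold PSD-95, had log2 ratios of -2.36 and -0.37 in FaDu and of -1.86 and -0.34 in HSC3. CMTM6, a membrane protein that stabilises PD-L1, was at -1.84 and -1.74 after miR-489 and at -0.58 in both lines after miR-504. PKP1, a desmosomal plakophilin, and PLEKHA7, an adherens junction protein, had differences of -1.19 and -1.02 and of -1.21 and -1.07. PKP1 met the limits under 2 of the 7 other settings of signal, background and centring, and PLEKHA7 under 0. The 2 differed in their ratios to the control. PKP1 was at -0.45 and -0.30 after miR-489 and at 0.74 and 0.72 after miR-504, whereas PLEKHA7 was at -1.50 and -1.12 after miR-489 and at -0.29 and -0.05 after miR-504.

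CD97, now ADGRE5, an adhesion receptor coupled to G proteins, was the 1 gene of the set above the control after miR-489 in FaDu. Its log2 ratio was 0.29 after miR-489 and 1.52 after miR-504 in FaDu, and -0.23 and 1.13 in HSC3. On this probe the differences of -1.24 and -1.37 thus came with a miR-504 level more than 2-fold above the control in both lines. Another CD97 probe had similar differences, -1.20 and -1.57, but other ratios to the control. It was at -0.82 and 0.39 in FaDu and at -1.25 and 0.32 in HSC3, below the control after miR-489 in both lines.

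Signalling proteins made up 10 genes, and 6 of them were 2-fold below the control on both miR-489 arrays, or 2 when centred on all probes. ERRFI1, an inhibitor that acts in feedback on the epidermal growth factor receptor, had log2 ratios of -2.12 and -0.89 in FaDu and of -2.09 and -0.65 in HSC3. Against the control on the same array, ERRFI1 was thus below it after both miRNAs and lower after miR-489. Its Cy3 intensity was 1277 beside miR-489 and 2654.5 beside miR-504 in FaDu, and 4104 and 8145.5 in HSC3. The level of ERRFI1 below the control after miR-504 therefore rests on the control of that array. MAPK14, the p38-alpha stress kinase, had log2 ratios of -1.33 and 0.44 in FaDu and of -1.11 and 0.27 in HSC3. NOXA1, an activator of NADPH oxidase, was at -0.76 and 0.89 in FaDu and at -1.02 and 0.61 in HSC3, with differences of -1.66 and -1.63. RAP2B, a Ras-like GTPase, had differences of -1.78 and -1.21, and RAPGEF2, an exchange factor for Rap GTPases, of -1.41 and -1.05. CHN1, a GTPase-activating protein for Rac, had differences of -1.87 and -1.55, and the membrane receptor PAQR6 of -1.63 and -1.40. REPS2, an EH-domain protein of receptor endocytosis, stood at -1.51 and -1.20. JAG1, a ligand of Notch receptors, was at -0.52 and -0.61 after miR-489 and at 0.90 and 0.57 after miR-504, and CAMKK1, a calcium-dependent kinase, at -0.62 and -0.64 and at 0.76 and 0.39. In these last genes no miR-489 array was 2-fold below the control, and CAMKK1 met the limits under 0 of the 7 other settings.

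Of 7 genes of chromatin and transcription, 3 were 2-fold below the control on both miR-489 arrays, or 1 when centred on all probes. RBBP4, a histone-binding subunit of several chromatin complexes, had differences of -1.45 and -1.47. SMC1A, a subunit of cohesin, had differences of -1.63 and -1.26. JARID2, a partner of Polycomb repressive complex 2, lay next to the limit in FaDu, with log2 ratios of -1.19 and -0.19 there and of -1.42 and -0.22 in HSC3. AFF4, a scaffold of the super elongation complex, stood at -1.38 and -1.13 and the stress-induced factor ATF3 at -1.80 and -1.07. GRHL3, a transcription factor of epidermal barrier formation, had log2 ratios of -0.33 and 1.16 in FaDu and of -0.27 and 1.22 in HSC3. Its difference of -1.49 in each line thus rested mostly on the miR-504 arrays. BCL11B, a zinc finger factor, was alike in that respect in FaDu, with log2 ratios of -0.13 and 1.01, and stood at -0.56 and 0.51 in HSC3. It met the limits under 0 of the 7 other settings.

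Of 7 genes of RNA processing and modification, 5 were 2-fold below the control on both miR-489 arrays, or 2 when centred on all probes. EMG1, a methyltransferase of ribosomal RNA, had log2 ratios of -1.34 and -0.07 in FaDu and of -1.43 and -0.08 in HSC3. DDX47, a helicase of ribosomal RNA processing, was at -1.22 and -0.05 in FaDu and at -1.24 and -0.02 in HSC3. Both were close to the control after miR-504 in both lines, though another EMG1 probe was at 0.30 and 0.41. C22orf28, now RTCB, is the ligase that joins tRNA fragments after splicing. Its log2 ratios were -1.78 and -0.65 in FaDu and -1.59 and -0.44 in HSC3. Another C22orf28 probe was at -0.70 and 0.29 in FaDu and at -0.60 and 0.38 in HSC3. On that probe the differences were -0.99 and -0.98, just outside the limits, and the level after miR-504 was above the control. EMG1, DDX47 and C22orf28 were among the 5 genes with the highest control signal in the set, with Cy3 intensities from 9912 to 21641. ZCCHC4, a methyltransferase of ribosomal RNA, was below the control on all 4 arrays, at -1.96 and -0.90 in FaDu and at -1.74 and -0.60 in HSC3. SON, a splicing cofactor, had differences of -1.40 and -1.50. MRM1, a mitochondrial ribosomal RNA methyltransferase, differed between the lines, with log2 ratios of -0.31 and 0.83 in FaDu and of -1.33 and 0.81 in HSC3. After miR-504 its ratio was alike in both lines, and the gap lay in the ratios of the miR-489 arrays. With the channels compared on their own, miR-489 minus miR-504 in Cy5 was -1.17 in FaDu and -1.59 in HSC3. In Cy3, which carries the control, it was -0.06 and 0.51, so the control channels held part of the gap.

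Genes of membrane lipids and solute transport made up 8 of the 103, and 7 of these were 2-fold below the control on both miR-489 arrays, or 5 when centred on all probes. CDIPT, the enzyme that makes phosphatidylinositol, had log2 ratios of -1.98 and -0.22 in FaDu and of -1.41 and -0.11 in HSC3. CDS1, which makes the CDP-diacylglycerol that CDIPT uses, was the exception of the group, at -0.67 and 0.51 in FaDu and at -0.85 and 0.40 in HSC3. C14orf147, now SPTSSA, a small subunit of the serine palmitoyltransferase that starts sphingolipid synthesis, was at -2.28 and -0.72 in FaDu and at -2.07 and -0.81 in HSC3. It was below the control on every array, with differences of -1.56 and -1.26. ATP1B3, a beta subunit of the sodium pump, had log2 ratios of -1.84 and -0.39 in FaDu and of -1.72 and -0.35 in HSC3. OSTM1, a partner of the lysosomal chloride transporter ClC-7, was at -2.10 and -0.27 in FaDu and at -1.53 and -0.18 in HSC3. SLC7A11, the cystine transporter that feeds glutathione synthesis, was at -1.29 and 0.02 in FaDu and at -1.14 and -0.01 in HSC3. Another SLC7A11 probe was at -0.36 and 0.82 in FaDu and at -0.16 and 0.51 in HSC3. Its level against the control thus depended on the probe. The Cy3 intensity of the chosen probe in HSC3 was 81 beside miR-489 and 217 beside miR-504. SLC7A11 met the limits under 3 of the 7 other settings. The phospholipid flippase ATP9A and the thiamine transporter SLC19A2 had differences of -1.33 and -1.07 and of -1.51 and -1.24.

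The secretory pathway and lysosome gave 8 genes, of which 5 were 2-fold below the control on both miR-489 arrays, or 3 when centred on all probes. CTSZ, the lysosomal protease cathepsin Z, had the lowest difference of all genes tested in HSC3. Its log2 ratio was -0.38 after miR-489 and 1.28 after miR-504 in FaDu, and -1.70 and 1.46 in HSC3. CTSZ was 3.16-fold lower after miR-489 than after miR-504 in FaDu and 8.96-fold lower in HSC3, and after miR-504 it was above the control in both lines. HPS3, a subunit of the BLOC-2 complex of lysosome-related organelles, was at -1.94 and 0.10 in FaDu and at -1.38 and -0.32 in HSC3. Its difference of -2.03 in FaDu and -1.05 in HSC3 was the widest gap between lines on the FaDu side. MESDC2, now MESD, a chaperone of LDL receptor-related proteins, was below the control on all arrays, at -1.81 and -0.80 in FaDu and at -1.91 and -0.89 in HSC3. KIAA0090, now EMC1, of the membrane protein insertion complex of the endoplasmic reticulum, had differences of -1.24 and -1.20. ERGIC2, of the compartment between endoplasmic reticulum and Golgi, had differences of -1.73 and -1.11, and STCH, now HSPA13, of -1.71 and -1.12. XYLT2, a xylosyltransferase of proteoglycan synthesis, stood at -1.05 and -1.22. NSF, the ATPase that takes apart SNARE complexes, was within 2-fold of the control on every array, at -0.85 and 0.15 in FaDu and at -0.88 and 0.22 in HSC3.

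Secreted proteins numbered 4, of which 3 were 2-fold below the control on both miR-489 arrays, or 1 when centred on all probes. PCOLCE2, an enhancer of procollagen processing, had log2 ratios of -1.59 and 0.15 in FaDu and of -1.82 and 0.08 in HSC3, and was close to the control after miR-504. AMH, anti-Müllerian hormone, was at -2.07 and -0.12 in FaDu and at -1.04 and -0.04 in HSC3. Its Cy3 intensity was only 31.5 to 60 and its Cy5 intensity 18.5 to 79.5, among the faintest of the set. The epithelial interferon IFNE1, now IFNE, had differences of -1.47 and -1.02 and the cytokine IL1F9, now IL36G, of -1.10 and -1.07.

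A further 42 genes had another role or no named product, and 28 of them were 2-fold below the control on both miR-489 arrays, or 18 when centred on all probes. CYP1B1, a cytochrome P450 that oxidises oestradiol and polycyclic hydrocarbons, had log2 ratios of -2.29 and -0.07 in FaDu and of -2.43 and -0.95 in HSC3. It was near the control after miR-504 in FaDu and below it in HSC3. C14orf143, now EFCAB11, an EF-hand protein, was at -2.20 and -0.20 in FaDu and at -1.64 and -0.42 in HSC3. MAMDC4 was at -0.15 and 0.95 in FaDu and at -1.06 and 0.51 in HSC3, a difference of -1.10 and -1.57. RP11-11C5.2 was at -2.02 and -0.35 in FaDu and at -2.58 and -0.44 in HSC3, the lowest miR-489 ratio of the set in HSC3. THC2278239 had the lowest in FaDu and was below the control throughout, at -3.06 and -1.39 in FaDu and at -2.24 and -1.13 in HSC3. On their chosen probes ENST00000376611 and AK124281 were also low after both miRNAs. The first was at -2.69 and -0.98 in FaDu and at -2.25 and -0.93 in HSC3. The second was at -1.99 and -0.53 and at -2.30 and -1.04. Another ENST00000376611 probe was at -1.85 and -0.13 in FaDu and at -1.34 and -0.31 in HSC3, closer to the control after miR-504. In all, 33 of the 103 array names had no current symbol, 68 were matched to one by accession and 2 by symbol.

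**Figure D3:**
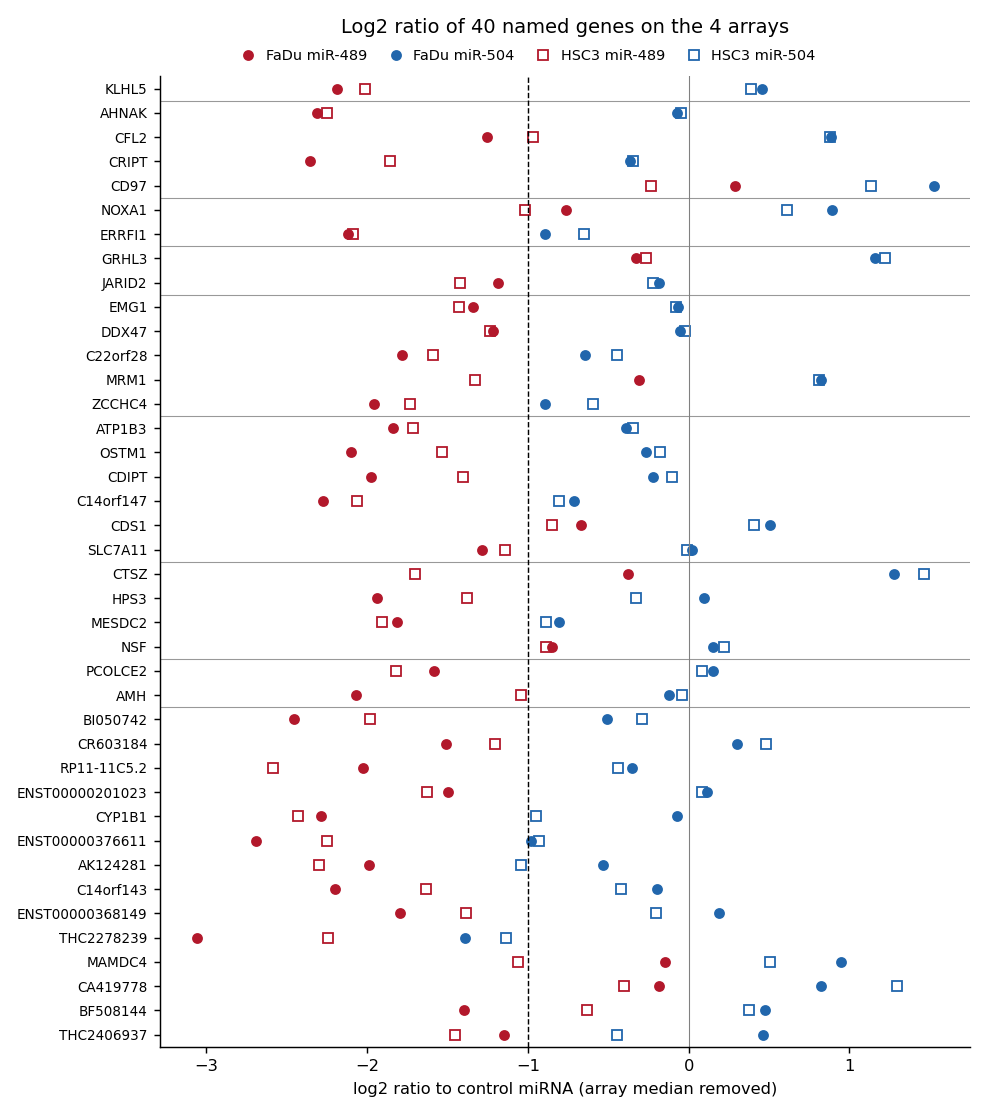
Log2 ratio to the control miRNA (horizontal axis) of 40 genes named by rule, 1 row per gene, ordered by role with lines between role groups and by their differences within a group. Red is miR-489 and blue miR-504, filled circles are FaDu and open squares HSC3, each from 1 array, and the dashed line marks -1. KLHL5 lies at -2.19 and -2.02 after miR-489, whereas CTSZ, GRHL3 and CD97 lie at 1.13 to 1.52 after miR-504.

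Several of the unnamed transcripts lay beside named genes in the coordinates of the array design, taken here as the distance between the lower ends of their probes. Of the 103 genes, 12 formed 6 pairs within 10 kb, so that the set covers 97 separate loci. A_23_P45902 lay 633 bases from RBBP4, and their differences were -1.61 and -1.37 beside -1.45 and -1.47. A_23_P129405 lay 890 bases from CDIPT, with -1.68 and -1.21 beside -1.75 and -1.30. A_24_P255123 lay 8849 bases from the chosen probe of KLHL5 and 2 bases from another KLHL5 probe, with differences of -2.15 and -1.52. AK026697 lay 5901 bases from CDS1, and ENST00000201023, which had differences of -1.61 and -1.71, lay 5662 bases from ERGIC2. These 5 pairs ran in the same orientation, and whether a pair measured a single transcript was not tested, so its members are not counted as independent. CA419778 lay 497 bases from ATP1B3 in the opposite orientation. It was at -0.19 and 0.82 in FaDu and at -0.40 and 1.29 in HSC3, and so stood above the control after miR-504 where ATP1B3 stood below it.

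Other unnamed transcripts lay beside genes outside the set. BI050742, with log2 ratios of -2.46 and -0.51 in FaDu and of -1.98 and -0.29 in HSC3, lay 584 bases from a probe of NF2, in the opposite orientation. CR603184 was at -1.51 and 0.30 in FaDu and at -1.21 and 0.48 in HSC3, and lay 2579 bases from a PLEKHB2 probe with differences of -1.61 and -1.57. Another PLEKHB2 probe, 18880 bases away, was at -0.07 and -0.61. ENST00000373218, with differences of -1.39 and -1.16, lay 4789 bases from an EIF4EBP2 probe at -1.16 and -0.97. A further EIF4EBP2 probe, 8527 bases away, went the other way, at 0.73 and 0.17. LOC286334, with -1.61 and -1.42, lay 6714 bases from a ZNF618 probe at -1.07 and -0.87. CA312433, with -1.06 and -1.07, lay 3178 bases from CBX6 at -0.84 and -0.81. These neighbours were chosen after their values were seen.

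Probes other than the brightest did not enter the rule, although they were read from the same RNA on the same arrays. Another probe was on the array for 38 of the 103 genes, and for 26 of them at least 1 was well above background in both channels on all arrays, 38 probes in all. Of these 38 probes, 20 were at or below -1 in both lines, beside 0.721% of the 5133 other probes of all genes tested, and 34 were below 0 in both. Their median difference was -1.22 in FaDu and -1.03 in HSC3, beside 0.047 and 0.051 for all such probes. For 12 genes every other probe was 2-fold lower in both lines, and for 12 none was. The other probes of KLHL5 were at -1.47 and -1.42 and at -1.24 and -1.53, less low than the chosen probe. SON had 3 further probes, from -1.52 to -1.33 in FaDu and from -1.78 to -1.07 in HSC3. GMCL1, OSTM1, CFL2, CMTM6, CD97 and KIAA0090 also had every other probe at or below -1 in both lines.

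AHNAK had probes of opposite direction. The probe A_23_P127789 was at -1.99 and -2.35 and A_23_P426636 at -1.88 and -1.89, like the chosen probe. A_23_P21363 was instead higher after miR-489, at 1.08 in FaDu and 1.71 in HSC3, with log2 ratios to the control of 1.41 and 1.57 after miR-489 and of 0.33 and -0.15 after miR-504. Other genes had a probe with little or less difference. MAPK14 had another probe at -0.13 and -0.01, RAP2B at -0.07 and -0.19, and RP11-11C5.2 at -0.22 and -0.08. STCH had another probe at -0.42 and -0.09, and APPBP2 at -0.61 and -0.50. The other ZCCHC4 probes were at -0.04 and -0.93 and at -0.56 and -1.08. WDR68 had 1 further probe at -1.54 and -1.01 and 2 at 0.08 in FaDu and at 0.25 and -0.04 in HSC3. In AFF4 all 3 other probes were above -1, from -0.45 to 0.25 in FaDu and from -0.53 to 0.29 in HSC3. For these genes the difference holds for the probe measured and not for every probe carrying the name. Where each probe lies in its transcripts was not analysed here.

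**Figure D4:**
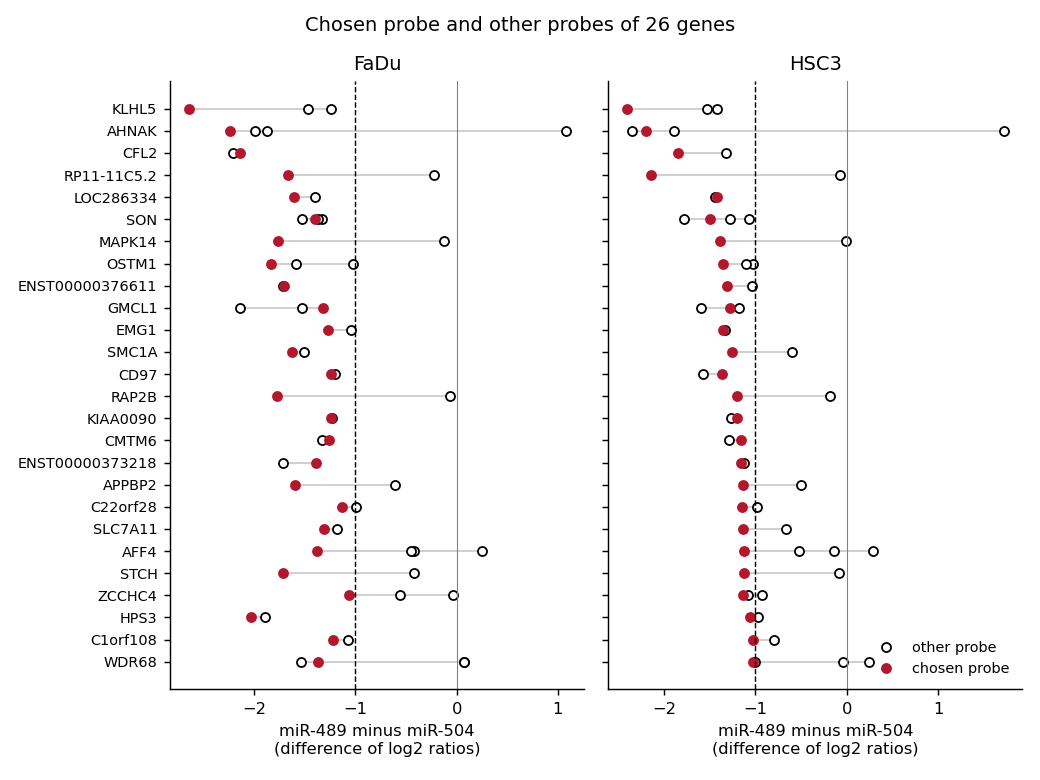
Difference between miR-489 and miR-504 (horizontal axis, difference of log2 ratios) for 26 genes, 1 row each, in FaDu on the left and HSC3 on the right. Filled points are the probe that chose the gene and open points its other probes well above background, with dashed lines at -1. An AHNAK probe stands at 1.08 and 1.71, opposite to the other AHNAK probes, and those of SON, OSTM1 and GMCL1 lie together below -1.

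As each array carries its own control, a difference of ratios can come from the Cy5 channel, from the Cy3 channel or from both. The Cy5 channels of the miR-489 and miR-504 arrays of a line were therefore also compared directly after quantile normalisation. On Cy5 alone a level at least 2-fold lower after miR-489 was found for 89 of the 103 genes in FaDu and 78 in HSC3. In both lines it was found for 70, beside 0.942% of all genes tested. Nothing is read from these shares, because Cy5 is a term of the difference that chose the genes. Without the 6 genes left out by name, 141 genes met the limits on Cy5 alone, and only 70 of them were in the set. The control channels of a line differed by 2-fold or more for 2 genes in FaDu and for 6 in HSC3, although both carry a control transfectant of that line. The same count over all genes tested was not made, so these counts are not read as a trait of the set. Over all genes tested the quartiles of this control difference were -0.15 and 0.15 in FaDu and -0.17 and 0.19 in HSC3. Whether the same control RNA was used on both arrays is not stated. KLHL5 and AHNAK were as low on Cy5 alone, at -2.77 and -2.54 and at -2.05 and -2.13. The Cy5 intensity of KLHL5 was 83 after miR-489 and 594 after miR-504 in FaDu, and 89 and 569 in HSC3. In CAMKK1 the FaDu difference came mainly from the control channel, since Cy5 alone gave -0.16 and Cy3 alone 1.15. In BF508144 the HSC3 difference of -1.01 came entirely from the control, as Cy5 alone gave 0.24 and Cy3 alone 1.19, and in IL1F9 Cy5 alone gave -0.18 in HSC3. The HSC3 difference of CTSZ held both, with -2.17 on Cy5 alone and 1.07 on Cy3 alone. The Cy3 intensity of CTSZ was 803.5 beside miR-489 and 468 beside miR-504 in HSC3. GRHL3 showed the reverse in HSC3, with -2.68 on Cy5 alone and -1.27 on Cy3 alone.

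**Figure D5:**
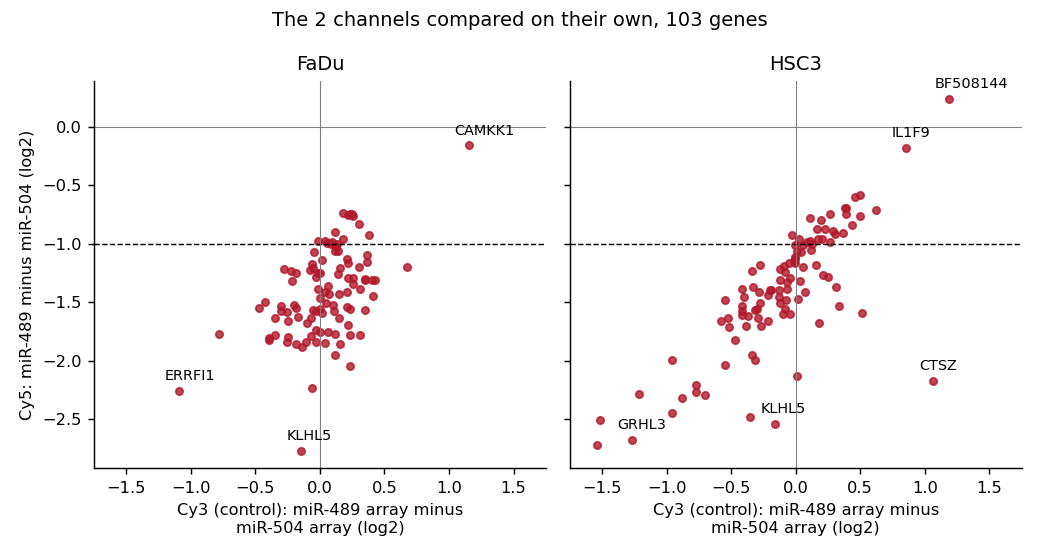
For each of the 103 genes, the log2 difference between the miR-489 and the miR-504 array in the Cy3 channel, which carries the control (horizontal axis), and in the Cy5 channel (vertical axis), in FaDu on the left and HSC3 on the right. The dashed line marks -1 on Cy5 alone, below which lie 89 genes in FaDu and 78 in HSC3. CAMKK1 in FaDu and BF508144 and IL1F9 in HSC3 have high Cy3 differences and Cy5 differences near 0.

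The control level of the genes was compared between the lines by their Cy3 channels. It was at least 2-fold higher in FaDu than in HSC3 for 14 of the 103 genes and at least 2-fold lower for 13, beside 11.2% and 10.5% of all genes tested. The Cy3 channels of IL1F9 differed by -2.07 (log2, FaDu minus HSC3), those of CD97 by -1.51 and those of ERRFI1 by -1.50. SLC7A11 differed by 1.77, SON by 1.33 and CDIPT by 1.28 in the other direction. The difference between miRNAs was present in both lines for these genes whichever line had the higher control level, by the rule that chose them. A mean control signal of at least 200 was reached by 73 of the 103 genes, beside 69.7% of all genes tested.

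The study's list of genes lower after miR-489 shares 14 genes with the set. That list was chosen on the FaDu miR-489 array, which the rule also used, so it is not independent evidence of direction. Without the 6 genes left out, 20 listed genes with a predicted miR-489 site were tested, of which 13 were in the set, with median differences of -1.61 in FaDu and -1.24 in HSC3. Of 16 tested genes listed without a predicted site, only AHNAK was in the set, and their median differences were -1.33 and -0.49. In FaDu 15 of the 20 and 10 of the 16 were 2-fold lower after miR-489 than after miR-504, and in HSC3 13 and 3 were. The genes with a predicted site and those without thus lay closer to each other in FaDu, the line of the selecting array, than in HSC3, a gap that was not tested.

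Lists of related genes showed few further members. Most of the lists were drawn up around genes known to be low, so a member in a list may follow from its making, and 0.698% of all genes tested met the limits in both lines. Among BTB-kelch proteins and CUL3, 1 of 21 tested was in the set, KLHL5, and the list medians were 0.061 in FaDu and 0.16 in HSC3. Of 37 RING-type ubiquitin ligases none (0) was in the set, and 3 were 2-fold lower in FaDu. Of 48 regulators of actin filaments and the cell cortex, AHNAK and CFL2 were in the set, with list medians of 0.10 and 0.048. Phosphoinositide synthesis gave 2 of 13, CDIPT and CDS1, the sodium pump 1 of 7, ATP1B3, and glutathione synthesis 1 of 8, SLC7A11. Serine palmitoyltransferase and sphingolipid synthesis gave C14orf147 among 6 genes, of which 1 other was at least 2-fold higher in both lines (0.275% of all genes tested), and list medians of 0.50 and 0.42. Growth factor receptor signalling gave ERRFI1 among 18, and vesicle coat genes gave HPS3 among 26. No member came from CAP-Gly proteins (9 tested), p160 coactivators (4), genes linked to LIN28 and let-7 (4), cyclins and kinases of the G1 phase (12) or nucleosome assembly (9). The medians over all genes tested were 0.018 and 0.019. In each list with members, most tested genes were therefore outside the set.

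The limit of -1 cut through a continuous range of values. Just inside it were AMH at -1.95 and -1.001, BF508144 at -1.87 and -1.009, THC2406937 at -1.61 and -1.006, NSF at -1.005 and -1.10 and JARID2 at -1.003 and -1.20. Just outside were ATF2 at -1.40 and -0.999, LRP11 at -1.49 and -0.999, NFIL3 at -1.29 and -0.993, TRIM59 at -0.997 and -1.001 and ZNF28 at -0.987 and -1.57. In at least 1 line these genes differed from the limit by less than the SD of a difference between spots.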

How the data were processed

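The authors deposited the scanner output of 4 arrays, written by Feature Extraction 9.5.3.1 per the file headers, with median and mean intensity of spot and local background per channel, not normalised. The deposited files also hold a log10 ratio per spot, normalised by that software, and 0 or 1 marks for outliers, saturation and signal well above background, used here as filters. A deposited value table was identical to the log10 ratios (largest difference 0). The study's methods name another scanner and software, log2 ratios of background-subtracted medians and a global normalisation.

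Control and outlier spots (118 to 137 an array) were left out. Spot medians less their local background gave log2 ratios, each array was centred on its probes well above background in both channels, replicate spots were averaged, and each gene took the probe with the highest mean Cy3 signal. No spot was saturated (0). Of the 103 genes, 101 rest on 1 spot an array. With 1 array per condition no test was run. The number of arrays limits the precision. The sources do not give the number of cultures behind a sample. Names were updated by accession to GRCh38.p14 RefSeq. R 4.3.3 with limma 3.58.1 and Python 3.11.15 with pandas 2.3.3 and numpy 2.4.6 were used. The selection was also run on simulated data made from the 15609 genes. It recovered 100 of 100 genes lowered by 1.5 and 100 of 100 lowered by 2 on the log2 scale, with 0 false. Both shifts lie beyond the limit of 1, so this checks the calculation and not how reliable the set is.

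The set, the gene lists and the role groups were chosen with earlier results of these data known. Genes were named by rule: members on the study's list, the 10 lowest by their higher difference, the 5 widest line gaps each way, the 5 highest and 5 lowest after miR-504, the 5 brightest, those nearest the limit, and members of the gene lists. Alternatives were background correction, loess (span 0.3), normexp (offset 50), mean signal, the deposited ratios, centring, filters, probe choice, Cy5 alone, limits of 1.5-fold and 4-fold, and each line alone. Some genes of the set are not reported here by name.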

Additional observations from a re-analysis of the deposited data

Results flagged for a closer look

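In 4 genes of the set a ratio to the control lay on opposite sides of 0 in the lines, each by more than 2 SD of a spot, and the difference between lines was not tested. This SD covers error within an array only, not the spread between samples. After miR-489 the log2 ratio of CD97 was 0.288 in FaDu and -0.234 in HSC3, but -0.82 and -1.25 on another CD97 probe. After miR-504 it was 0.189 and -0.200 for ENST00000368149, 0.283 and -0.162 for IL1F9 and 0.465 and -0.446 for THC2406937. None of the 4 (0) stayed so on arrays centred on all probes, where the HSC3 ratios were 0.19, 0.15, 0.19 and -0.09, the last within 2 SD of 0.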

How the results depend on the processing

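With normexp background correction 41 genes met the limits, with normexp and loess 41, with no background subtraction 44 and with both channels at least 200 on all arrays 41, all of them among the 103. Median differences in FaDu and HSC3 were then -1.13 and -0.98 with normexp, -1.11 and -0.96 with normexp and loess, and -1.15 and -0.99 with no subtraction. Without a filter on dim probes 517 genes met the limits, at 1.5-fold 399, at 4-fold 2, in FaDu alone 319 and in HSC3 alone 226. Of the 103 genes, 2 were kept at 4-fold. With the second brightest probe, which 26 members have, 26 genes met the limits and 13 members were kept, with medians of -1.22 and -1.02, and 9 were 2-fold below the control on both miR-489 arrays. On Cy5 alone the HSC3 median was -1.38. The count 2-fold below the control on both miR-489 arrays was 28 with both channels at least 200. It was 36 when arrays were centred on all probes, which moved the ratios of all genes by 0.34 to 0.43. Mean signal kept 88 of the 103 genes, loess 79, the deposited ratios 86, centring on all probes 75 and the mean of a gene's probes 92. Under all 7 settings of signal, background and centring 37 were kept, and under none (0) 6: AK096056, BCL11B, CAMKK1, CR603982, PLEKHA7 and THC2406937. Of the genes named above, TMEM129, MESDC2 and IFNE1 were kept under 1 of the 7 settings. Kept under 2 were PKP1, MAMDC4, IL1F9, CA419778, BF508144, ENST00000368149, NSF, JARID2 and AMH. HPS3, ATF3 and ZCCHC4 were among those kept under 3. The second AHNAK probe reversed its difference to 1.08 and 1.71, and Cy5 alone that of BF508144 in HSC3 to 0.24. The cause was not tested. Of 1022 values of single genes under the alternatives, 717 moved by less than the SD between spots, 302 by more in the same direction, and 3 reversed. The 717 overstate stability, because part of them was fixed in advance. Settings that changed only a filter left the values as they were (80, 80 and 38 values). Centring on all probes shifted every difference by 0.056 in FaDu and 0.075 in HSC3, less than the SD (80 values). The deposited value table repeated the deposited ratios (60 values). Signal limits the set in that 41 of the 103 genes reached an intensity of 200 in both channels on all arrays. The share of all genes tested that did so was not counted, so the set is not compared with other genes here. No paired analysis was possible because the result comes from no test: the difference is already taken within each line, and it chose the genes. With 1 array per condition no replicate could be left out.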
